A study of Homo sapiens with 9 samples.

Results

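The 10 genes described here encode transcription factors and cofactors of the red cell lineage: GATA1, TAL1, LMO2, LDB1, ZFPM1, GFI1B, KLF1, NFE2, BCL11A and MYB. They were chosen by name as the GATA1 and TAL1 complex with its partners, KLF1, NFE2 and regulators of globin switching, and were found by Ensembl gene ID among the 63677 IDs counted. RNA was sequenced from 9 cultures of K562, a human erythroleukaemia line derived from chronic myeloid leukaemia. They comprised the parental line, labelled wild type for the splicing factor gene SRSF2, 4 CRISPR clones with wild-type SRSF2 (W19, W33, W36 and W42, here WT) and 4 CRISPR clones carrying SRSF2 P95H (P9, P15, P22 and P38). The submitters made these libraries to look for differential splicing between clones with and without the mutation. Each clone gave 1 library, no drug or time course was given, and the labels do not say whether the clones of a group came from separate edits. P-values therefore measure only the spread between these clones. Gene counts do not read the edited base.

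GATA1 is the zinc finger factor that switches on most genes of the red cell. On DNA it sits in a complex with TAL1, a basic helix-loop-helix factor, which is joined to GATA1 through the LIM domain protein LMO2 and the scaffold LDB1. ZFPM1 (FOG1) binds GATA1 directly and GFI1B is a repressor of the same lineage. KLF1 recognises CACCC boxes of the adult globin gene and of many other red cell genes, NFE2 pairs with small MAF proteins at the globin locus control region, BCL11A silences fetal globin, and MYB keeps progenitors dividing. K562 makes embryonic and fetal globin and almost no adult beta globin.

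Promoter sequence was set beside the counts for 4 of these genes: GATA1, KLF1 and GFI1B, whose highest level among the clones was in W33 for each, and TAL1, which had the widest spread of the complex's 4 core members among the mutant clones. RefSeq promoter windows (GRCh38.p14, 250 bases before to 50 bases after a start) matched 8 of the 10 genes by symbol, with 14 windows among them; LMO2 and NFE2 were not matched. The letters AGATAA and TGATAA, to which GATA factors bind, were searched on both strands. They were found in 3 of the 14 windows, those of KLF1, of 1 TAL1 start and of 1 GFI1B start, and in 16.3% of the 35116 windows of that length in the table. The letters CACCC, the KLF1 type of site, were found in 9 of the 14 windows and in 59.9% of all windows. The E-box CANNTG, the TAL1 type of site, was found in 6 of the 14 and in 68.7% of all. The letters TGANTCA, part of the NFE2 type of site, were in 1 window, that of the same TAL1 start, and in 7.71% of all. All words were searched on both strands, and matches to different words may share bases. The 250 bases before the start are printed 5′ to 3′ on the gene's own strand, with the AGATAA or TGATAA words, read on either strand, in capitals.
GATA1, chrX:48786340-48786589, + strand: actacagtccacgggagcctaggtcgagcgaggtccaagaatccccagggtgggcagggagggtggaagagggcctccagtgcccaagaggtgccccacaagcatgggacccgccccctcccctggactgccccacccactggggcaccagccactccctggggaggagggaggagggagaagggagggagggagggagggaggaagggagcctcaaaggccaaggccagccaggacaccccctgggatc
KLF1, chr19:12887202-12887451, - strand: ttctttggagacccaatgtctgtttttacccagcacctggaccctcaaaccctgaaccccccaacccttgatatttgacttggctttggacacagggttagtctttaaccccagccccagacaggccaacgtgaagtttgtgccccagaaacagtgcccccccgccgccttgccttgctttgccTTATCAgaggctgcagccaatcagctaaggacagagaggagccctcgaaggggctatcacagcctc
GFI1B, chr9:132978444-132978693, + strand: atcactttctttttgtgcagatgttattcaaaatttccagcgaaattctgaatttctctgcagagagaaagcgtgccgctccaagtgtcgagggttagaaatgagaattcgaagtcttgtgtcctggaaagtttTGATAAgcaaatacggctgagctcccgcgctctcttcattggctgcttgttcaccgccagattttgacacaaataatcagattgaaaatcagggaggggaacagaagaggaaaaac
TAL1, chr1:47232336-47232585, - strand: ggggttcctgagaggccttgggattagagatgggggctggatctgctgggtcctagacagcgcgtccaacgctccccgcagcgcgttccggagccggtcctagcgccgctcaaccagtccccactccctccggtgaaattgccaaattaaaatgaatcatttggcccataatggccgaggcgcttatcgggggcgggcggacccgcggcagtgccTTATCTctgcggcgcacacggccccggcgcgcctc
In these sequences the capitals begin at position -66 from the start of KLF1, -116 from that of GFI1B and -35 from that of TAL1. The GATA1 stretch holds none of these words and 4 matches to CACCC. A match describes the letters only.

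Libraries held 24546255 to 35477328 reads counted in genes, the fewest in W33 and the most in the parental culture. Levels are given as CPM, read counts relative to each library's TMM-scaled total. A count of 3 reads, taken as the floor, came to between 0.0865 and 0.133 CPM. The labelled cell type was checked on markers: 11 of 11 erythroid markers were at 1 CPM or more in every library, among them the globins HBG1 and HBZ and the transferrin receptor TFRC. Their summed level was 3106 to 5187 CPM in WT clones, 2682 to 7978 CPM in P95H clones and 3558 CPM in the parental library. Of other lineages, 2 of 8 megakaryocyte, 3 of 8 granulocyte and monocyte, 0 of 6 mast cell, 2 of 6 lymphoid and 1 of 8 fibroblast or epithelial markers reached 1 CPM in every library, and PF4, CPA3, MS4A1, PDGFRA and KRT5 were at 0 in all 9. The summed megakaryocyte markers were at 20.7 to 28.6 CPM in WT clones, 39.1 to 57.8 CPM in P95H clones and 35.7 CPM in the parental library. Of those 8 markers, 5 were under 1 CPM in all 9 libraries, and only ITGA2B and TUBB1 reached 1 CPM in every library. Their sum did not overlap between the groups. Among single genes tested, 3.94% had all P95H clones above all WT clones. The other lineage sums overlapped. Mast cell markers summed to 2.24 to 7.42 CPM in WT and 0.957 to 39.3 CPM in P95H clones, and granulocyte and monocyte markers to 38.6 to 65.5 and 28.3 to 98.5 CPM. The part of these markers in the differences described here was not tested. In bulk RNA fewer cells of a type and less RNA per cell cannot be told apart.

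Of the 10 genes, 9 were well expressed in every library and BCL11A was not. Between genes, levels are compared per length of exon (RPKM, CPM per kilobase). The median RPKM over the 9 libraries was 156 for GATA1, 72.3 for KLF1, 67.7 for NFE2, 44.8 for LDB1, 39.2 for LMO2, 38.5 for MYB, 17.1 for TAL1, 10.6 for GFI1B and 2.69 for ZFPM1. GATA1 stood above the rest: its lowest library, at 143 RPKM, was above the highest of any other, 117 RPKM for NFE2. The ranges of KLF1 (47.2 to 96.9 RPKM) and NFE2 (53.6 to 117) overlapped, and LDB1 (38.5 to 61.6) and LMO2 (27.3 to 55.1) reached into both and overlapped with MYB (20.4 to 42.6). TAL1 (13.8 to 30.0) overlapped with MYB and LMO2 above it and with GFI1B (9.37 to 14.0) below it, and ZFPM1 (2.10 to 5.06) overlapped with no other member tested.

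**Figure D1:**
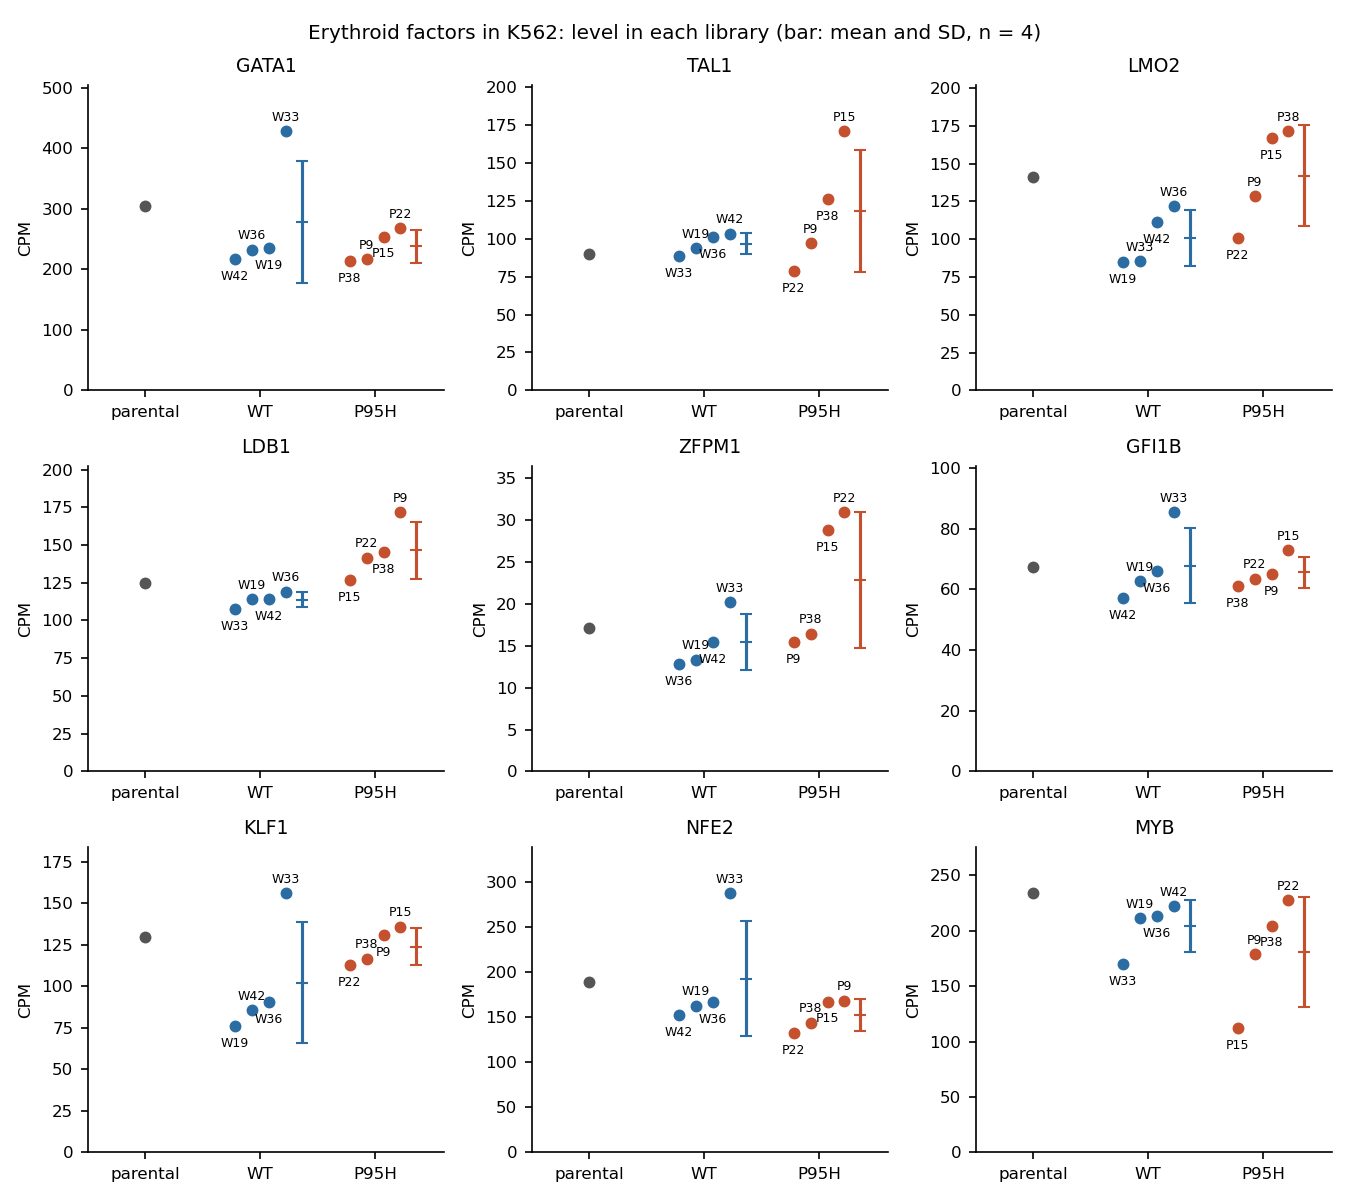
Levels in CPM (y axis, linear from 0) of the 9 expressed factors in the parental library, the 4 WT clones and the 4 P95H clones; each point is 1 library and bars are the mean and SD of the 4 clones. W33 is the highest WT clone for GATA1, KLF1, NFE2, GFI1B and ZFPM1, and P15 has the highest TAL1 (171 CPM) and the lowest MYB (112 CPM).

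P95H clones were first set against WT clones. With edgeR's quasi-likelihood test and Benjamini-Hochberg adjustment over 18173 genes, 0 genes (0%) passed an adjusted p of 0.05, and so did 0 of the 9 members tested. The smallest adjusted p of any gene was 0.128, and an unadjusted p under 0.05 was reached by 1103 genes on the higher side (6.07%) and 1027 on the lower side (5.65%). LDB1, LMO2 and ZFPM1 were among the former and no member among the latter. DESeq2 called 261 genes (1.44%) and limma-voom with quality weights 59 (0.325%), with 0 members in either. The differences that follow are therefore estimates that did not pass the test. Of the 9 members, 5 had an estimate above 0, with a median log2 difference of 0.29 against 0.01 over all genes tested.

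LDB1, the scaffold of the complex (ENSG00000198728, chromosome 10), was the only member whose groups did not overlap. It was at 114, 107, 119 and 114 CPM in W19, W33, W36 and W42 and at 172, 127, 142 and 146 CPM in P9, P15, P22 and P38. The parental library had 125 CPM. Every P95H clone was above every WT clone, and the parental library lay between the groups. The means were 114 ± 4.75 CPM in WT and 146 ± 18.8 CPM in P95H clones (SD, n = 4 each), a log2 difference of 0.37 (SE 0.11, edgeR adjusted p = 0.320). DESeq2 gave an adjusted p of 0.0784 and limma-voom 0.0989. Over all genes tested, 716 (3.94%) had all P95H clones above all WT clones and 841 (4.63%) had all of them below, with no member among the latter.

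LMO2 (ENSG00000135363, chromosome 11), the bridge between TAL1 and GATA1, was at 84.9, 85.2, 122 and 111 CPM in W19, W33, W36 and W42. In P9, P15, P22 and P38 it was at 128, 167, 101 and 171 CPM, and in the parental library at 141 CPM. Only P22 of the mutant clones fell within the WT range. The log2 difference was 0.50 (SE 0.19, edgeR adjusted p = 0.370), from 101 ± 18.6 to 142 ± 33.4 CPM (SD, n = 4 each). Its 20 nearest genes of at least 5 CPM were taken, 10 on each side by gene order. Of these, 16 also had a higher mean in P95H clones, with a median log2 difference of 0.17. LDB1 and ZFPM1 also had estimates above 0. Around LDB1, however, 6 of 20 neighbours were higher (median -0.10), and around ZFPM1 4 of 20 (median -0.12). The share of all genes with a higher mean was not counted.

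TAL1 (ENSG00000162367, chromosome 1) was even among WT clones, at 93.6, 88.4, 101 and 103 CPM in W19, W33, W36 and W42. Mutant clones were spread widely, at 97.2, 171, 78.5 and 126 CPM in P9, P15, P22 and P38, and the parental library had 90.1 CPM. The WT values thus fell inside the mutant range. P95H minus WT came to 0.30 on the log2 scale (SE 0.21, edgeR adjusted p = 0.594), and the estimate fell to 0.07 when P15 was left out. An antisense gene, AL135960.1, covers 14.8% of TAL1 exon bases in GENCODE 29, and as the kit does not mark strand, reads of the pair cannot be told apart there.

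GATA1 (ENSG00000102145, chromosome X) was at 234, 428, 233 and 217 CPM in W19, W33, W36 and W42, and at 216, 254, 268 and 214 CPM in P9, P15, P22 and P38. The parental library had 304 CPM. W33 stood far above the other 7 clones, which lay between 214 and 268 CPM without a gap between the groups. The estimated log2 difference was -0.21 (SE 0.21, edgeR adjusted p = 0.712) and 0.07 (SE 0.10, adjusted p = 0.819) without W33.

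ZFPM1 (ENSG00000179588, chromosome 16), the GATA1 cofactor, was at 13.3, 20.2, 12.9 and 15.5 CPM in W19, W33, W36 and W42. In P15 and P22 it was at 28.8 and 30.9 CPM, and in P9 and P38 at 15.4 and 16.4 CPM. The parental library had 17.2 CPM. The mutant clones formed a high pair and a low pair, and the low pair lay within the WT range. The log2 difference was 0.58 (SE 0.26, edgeR adjusted p = 0.421). It was 0.39 without P22, and its adjusted p stayed between 0.186 and 0.592 in DESeq2, limma-voom, with the length and GC trend removed, and without W33, P22 or both.

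GFI1B (ENSG00000165702, chromosome 9), the lineage repressor, varied least over the libraries, with a highest-to-lowest ratio of 1.49. It was at 62.7, 85.4, 66.0 and 57.2 CPM in W19, W33, W36 and W42, at 64.9, 72.8, 63.4 and 61.2 CPM in P9, P15, P22 and P38, and at 67.3 CPM in the parental library. All 4 mutant values lay inside the WT range. P95H minus WT came to -0.04 on the log2 scale (SE 0.13, edgeR adjusted p = 0.931). TSC1, on the other strand, covers 5.72% of GFI1B exon bases.

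KLF1 (ENSG00000105610, chromosome 19) was at 76.1, 156, 90.8 and 85.5 CPM in W19, W33, W36 and W42. The mutant clones P9, P15, P22 and P38 were close together at 131, 136, 113 and 117 CPM, and the parental library had 129.7 CPM. Of the WT clones, W33 was above all mutant clones and the other 3 were below all of them. The log2 difference was 0.29 (SE 0.20, edgeR adjusted p = 0.589). Without W33 it was 0.56 (SE 0.10, edgeR unadjusted p = 0.000326, adjusted p = 0.205). All P95H clones then lay above all WT clones, as for 1266 genes (6.97%) without W33. The limma-voom fit of all 8 clones, which gives each library a quality weight, put the KLF1 difference at 0.52 (SE 0.12, adjusted p = 0.0852). Of the 20 nearest expressed genes of KLF1, 5 had a higher mean in P95H clones, with a median log2 difference of -0.14 over all 8 clones. These 8 include W33, in which 18 of those 20 genes were higher than in the other WT clones (median 0.44).

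NFE2 (ENSG00000123405, chromosome 12) was at 163, 288, 167 and 152 CPM in W19, W33, W36 and W42. It was at 168, 167, 132 and 144 CPM in P9, P15, P22 and P38 and at 189 CPM in the parental library. Without W33 the groups lay over each other. The log2 difference was -0.32 (SE 0.20, edgeR adjusted p = 0.540) and -0.07 (SE 0.10, adjusted p = 0.805) without that clone.

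MYB (ENSG00000118513, chromosome 6) was at 212, 170.2, 213 and 222 CPM in W19, W33, W36 and W42. In P9, P15, P22 and P38 it was at 179, 112, 227 and 205 CPM, and in the parental library at 234 CPM. P15 was the lowest library, and the other 3 mutant clones lay between 179 and 227 CPM, near the WT range of 170.2 to 222 CPM. The estimated log2 difference was -0.17 (SE 0.20, edgeR adjusted p = 0.766), and it was 0.00 without P15. The antisense gene MYB-AS1 covers 1.88% of MYB exon bases.

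BCL11A (ENSG00000119866, chromosome 2), the fetal globin silencer, was all but absent. Its read counts were 5, 0, 3 and 0 in W19, W33, W36 and W42, 2, 1, 0 and 0 in P9, P15, P22 and P38, and 1 in the parental library. In 8 of the 9 libraries it was at or under the floor of 3 reads, so it did not pass the filter on low counts, was not tested and has no fold.

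**Figure D2:**
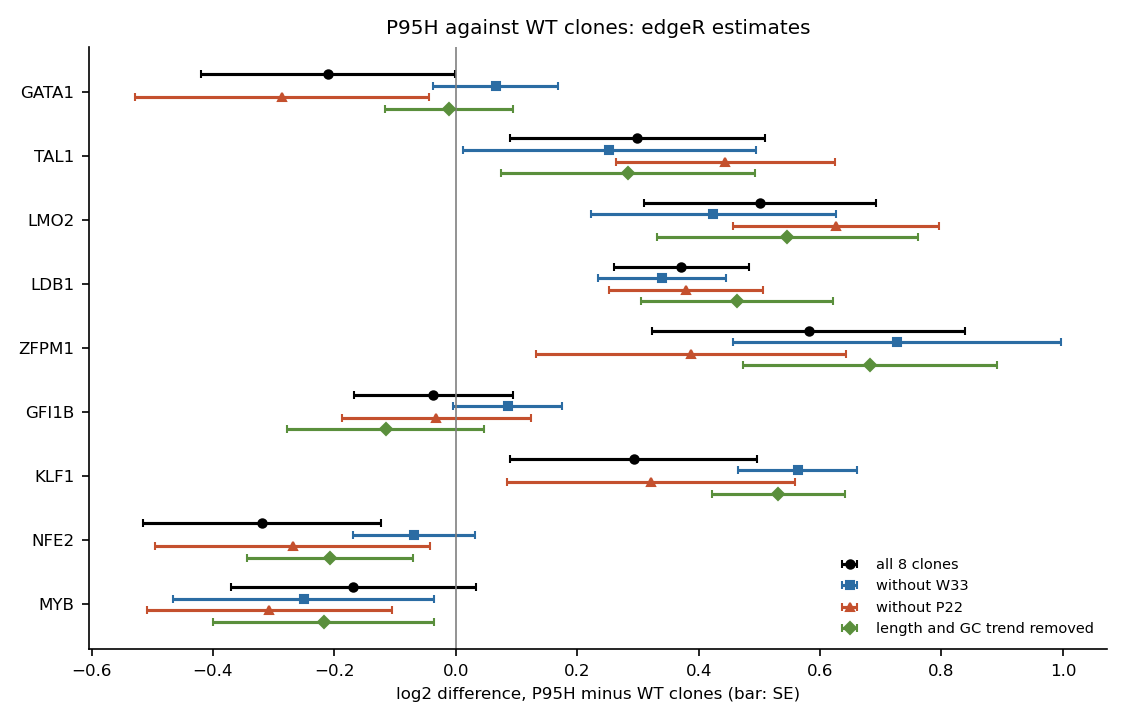
Log2 difference, P95H minus WT clones (x axis, linear; bars are SE), for the 9 tested factors from all 8 clones, without W33, without P22, and after removal of a trend over gene length and GC content. LDB1, LMO2, ZFPM1, TAL1 and KLF1 are right of 0 under all of these, KLF1 moves from 0.29 to 0.56 without W33, and GATA1 is at -0.21 with all clones and 0.07 without W33.

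The spread between clones of 1 group was wide for most of these genes. Within groups the SD of log2 CPM was 0.43 for ZFPM1, 0.35 for TAL1, and 0.32 to 0.34 for GATA1, MYB, KLF1, NFE2 and LMO2, against a median of 0.23 over 11985 tested genes of at least 5 CPM. GFI1B (0.19) and LDB1 (0.14) lay below that median. ZFPM1 was at the 88.8 percentile of those genes and LDB1 at the 17.4 percentile. By group the spread lay in different genes. KLF1 had an SD of 0.46 among WT and 0.13 among P95H clones, and TAL1 0.10 among WT and 0.48 among P95H clones; the difference in spread was not tested.

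Each clone was then set against the other 3 of its group, with 20636 genes tested and the lone clone assumed to vary like the rest. The WT clone W33 stood apart with 2246 genes called (10.9%), of which 1170 were higher (5.67%) and 1076 lower (5.21%). GATA1, KLF1 and NFE2 were among the higher genes and no member was among the lower ones. GATA1 rose by 0.91 on the log2 scale (SE 0.15, edgeR adjusted p = 0.0166), KLF1 by 0.89 (SE 0.14, adjusted p = 0.0166) and NFE2 by 0.84 (SE 0.15, adjusted p = 0.0190). GFI1B had an estimate of 0.46 (SE 0.13, adjusted p = 0.0592) and did not pass. TAL1 (-0.17), LMO2 (-0.31), LDB1 (-0.11), MYB (-0.34) and ZFPM1 (0.54) had adjusted p between 0.398 and 0.804. With W36 or W42 left out of the comparison no gene was called in W33; the 3 estimates were then 0.80 to 0.95, with adjusted p between 0.0544 and 0.0738. Without W19, 517 genes were called, GATA1 and KLF1 among them, and NFE2 had an adjusted p of 0.0529.

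Differences in W33 moved with gene length and base composition over the whole transcriptome. Over genes of at least 5 CPM its median log2 difference was 0.34 for exon lengths under 2 kb, 0.22 for 2 to 4 kb, -0.06 for 4 to 8 kb and -0.28 over 8 kb. By GC content it was -0.30 under 45%, 0.07 for 45 to 55% and 0.40 over 55%. In the other 7 clones the class medians stayed between -0.15 and 0.16 by length and between -0.23 and 0.19 by GC. GATA1 has 1500 bases of exon and 60.9% GC, KLF1 1611 bases and 65.7%, and NFE2 2469 bases and just under 55%, so GATA1 and KLF1 fall in the shortest class and in the one richest in GC, and NFE2 in the middle class by GC. GFI1B, with 6104 bases and 44.7% GC, is in classes whose medians were below 0 in W33. Length here is of all annotated exons merged, and GC is of the longest annotated transcript. That transcript need not be the one expressed in these cells.

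When a smooth trend over length and GC was removed from every library, W33 had 859 genes called (4.16%). GATA1 was then at 0.32 (SE 0.12, edgeR adjusted p = 0.171), KLF1 at 0.19 (SE 0.16, adjusted p = 0.565) and NFE2 at 0.48 (SE 0.15, adjusted p = 0.106), and none of them passed. GFI1B was at 0.65 (SE 0.14, adjusted p = 0.0466) and passed. LDB1 was at -0.57 (SE 0.19, adjusted p = 0.129). Removal of the trend, fitted on these lengths and GC values, thus changed which member was called in W33. Lengths and GC of other transcripts were not tried. The comparison with the trend removed was not repeated with W19, W36 or W42 left out.

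**Figure D3:**
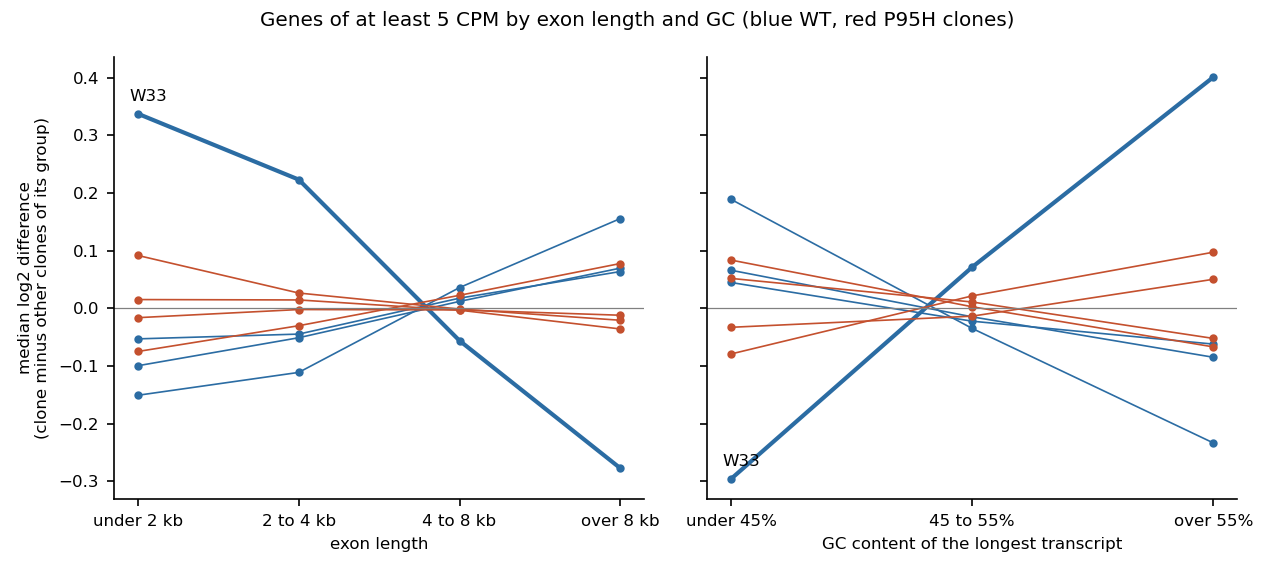
Median log2 difference of each clone from the other 3 clones of its group (y axis), over genes of at least 5 CPM in classes of exon length (left) and GC content (right); each line is 1 clone. W33, the thick line, runs from 0.34 to -0.28 with length and from -0.30 to 0.40 with GC, and the other 7 clones stay within -0.23 to 0.19.

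Neighbouring genes in W33 are given for comparison, 20 per gene. Around KLF1, 18 of 20 were higher in W33 than in the other WT clones, with a median log2 difference of 0.44. Around GATA1 14 of 20 were higher (median 0.31), around NFE2 15 (median 0.24) and around GFI1B 13 (median 0.29). Around TAL1 3 of 20 were higher (median -0.50) and around MYB 7 (median -0.47). Around ZFPM1 12 were higher (median 0.25), around LMO2 8 (median -0.11) and around BCL11A 8 (median -0.12). LDB1 itself was at -0.11 in W33, while 15 of its 20 neighbours were higher (median 0.34).

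In the other clones no member was called by edgeR. W19, W36, P9 and P38 had 0 genes called (0%), W42 had 4 (0.0194%), all lower: ADGRA3, MAGED1, HCLS1 and LINC01524. P15 had 1 (0.00485%), AC079922.1, and P22 had 88 (0.426%). The largest estimates were in P15 and P22. In P15, MYB was at -0.86 (SE 0.21, unadjusted p = 0.00317, adjusted p = 0.292) and TAL1 at 0.76 (SE 0.23, unadjusted p = 0.0104, adjusted p = 0.431). P15 was thus the library with the most TAL1 and the least MYB. Of the 20 neighbours of TAL1, 16 were higher in P15 (median 0.18), and of those of MYB 8 were higher (median -0.09). In P22, TAL1 was at -0.74 (SE 0.29, adjusted p = 0.476), LMO2 at -0.62 (SE 0.27, adjusted p = 0.567) and ZFPM1 at 0.61 (SE 0.37, adjusted p = 0.801). P9 had the lowest ZFPM1 estimate, -0.72 (SE 0.40, adjusted p = 1), and 3 of 20 TAL1 neighbours higher (median -0.47) with TAL1 itself at -0.37 (SE 0.35, adjusted p = 1).

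**Figure D4:**
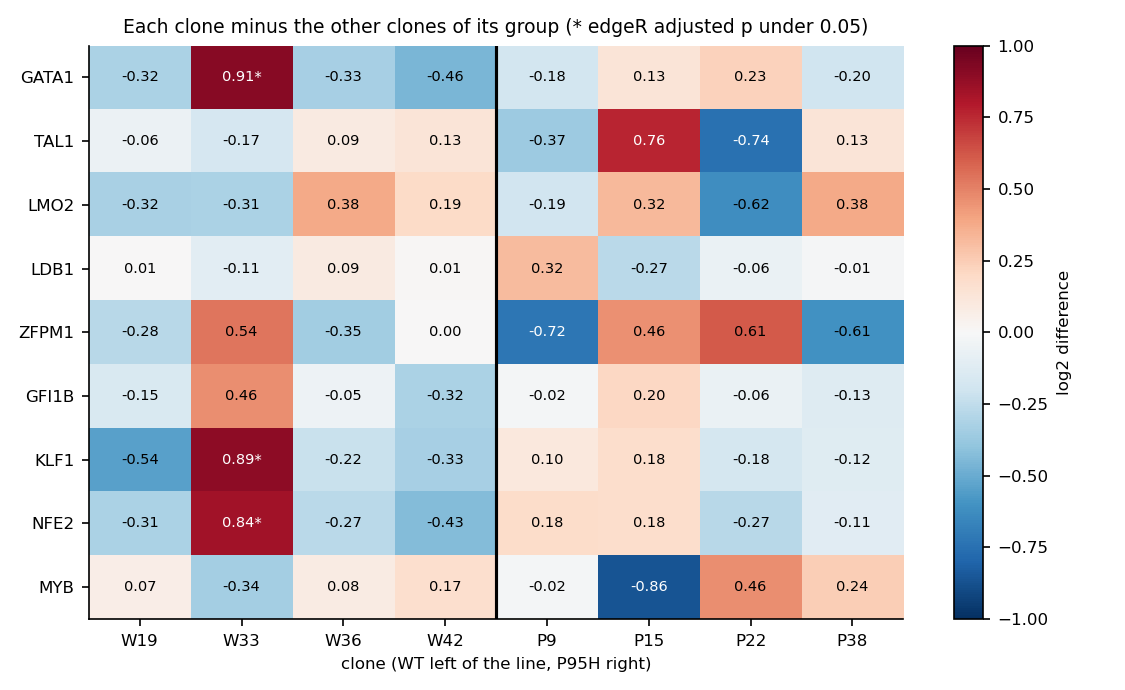
Log2 difference of each clone from the other 3 clones of its group for the 9 tested factors (colour and printed value; WT clones left of the line, P95H clones right). Asterisks mark an edgeR adjusted p under 0.05, reached by GATA1 (0.91), KLF1 (0.89) and NFE2 (0.84) in W33.

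The parental library, set against the 4 WT clones and assumed to vary like the clones, differed from them in 1 gene of 20636 (0.00485%), KYNU, and in 0 members. Estimates for the members ran from -0.10 for TAL1 to 0.49 for LMO2 (SE 0.29) on the log2 scale, all with an adjusted p of 1. For every tested member but TAL1 the parental level lay above those of 3 or 4 of the 4 WT clones.

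GATA2, which precedes GATA1 in the lineage and is replaced by it as red cells mature, was at 91.0, 102, 86.3 and 82.9 CPM in W19, W33, W36 and W42. In P9, P15, P22 and P38 it was at 100.3, 65.0, 108 and 65.1 CPM, and in the parental library at 75.8 CPM. The log2 ratio of GATA2 to GATA1 was -1.36, -2.07, -1.43 and -1.39 in the WT clones in that order, -1.11, -1.96, -1.31 and -1.72 in the P95H clones and -2.004 in the parental library. The groups overlapped in part: P9 and P22 were above every WT clone, and P15 and P38 lay within the WT range. Their means were -1.56 ± 0.34 and -1.52 ± 0.39 (SD, n = 4 each), a difference of 0.04 with a two-sided exact permutation p of 0.886 over 70 labelings, whose smallest possible p is 0.0286. The difference was below 0 without W33 (-0.13), without P9 (-0.10) or without P22 (-0.03).

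**Figure D5:**
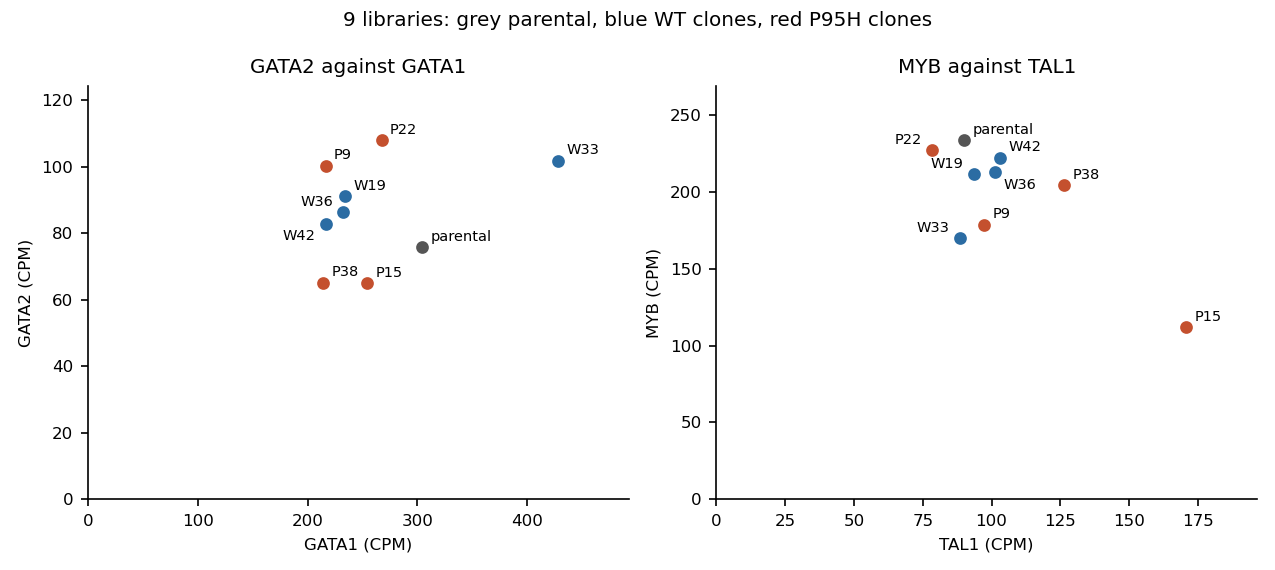
Levels in CPM (linear axes from 0) of GATA2 against GATA1 (left) and of MYB against TAL1 (right), each point 1 of the 9 libraries. W33 has the most GATA1 (428 CPM) with 102 CPM of GATA2, and P15 lies alone with 171 CPM of TAL1 and 112 CPM of MYB.

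Genes that work with these factors were read from lists. Of 36 partners and cofactors of the GATA1 and TAL1 complex, 33 were tested in P95H against WT clones, and 18 had estimates above 0 and 15 below, with a median log2 difference of 0.03. None was called by edgeR, and at an unadjusted p under 0.05 there were 5 on the higher and 1 on the lower side, where all genes gave 6.07% and 5.65%. Without W33, 25 estimates were above 0 and 8 below, with a median of 0.04 against 0.01 over all genes tested. At that p 3 were then on the higher and 1 on the lower side, against 7.26% and 5.53% of all genes. The corepressor CBFA2T2 (27.2 ± 1.64 against 21.9 ± 0.44 CPM, SD, n = 4 each) had a log2 difference of 0.33 (SE 0.11, edgeR adjusted p = 0.334). The E proteins TCF4 and TCF12, partners of TAL1 on E-boxes, were at 0.51 (SE 0.17) and 0.40 (SE 0.16), with adjusted p of 0.338 and 0.400. The deacetylase HDAC2 was at -0.26 (SE 0.11, edgeR adjusted p = 0.398). The groups did not overlap for CBFA2T2, TCF4 and TCF12, with P95H clones above, as for 3.94% of all genes. Nor did they for HDAC2, with P95H clones below, as for 4.63%.

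In W33, 6 of these 33 partners were called, 3 higher and 3 lower, against 5.67% and 5.21% of all genes. SSBP4 (0.83), the NuRD subunit MBD3 (0.75) and the TAL1 relative LYL1 (0.91) were higher, and the acetyltransferase EP300 (-1.09), TCF12 (-0.64) and the corepressor subunit RCOR1 (-0.51) were lower, with edgeR adjusted p between 0.0201 and 0.0443. With the length and GC trend removed, EP300 alone of the list was called (-0.96, adjusted p = 0.0372). In P22, KDM1A, a histone demethylase recruited by GFI1B (0.99, adjusted p = 0.0383), and SPI1, a myeloid factor that opposes GATA1 (1.88, adjusted p = 0.0477), were higher than in the other P95H clones. Of the 33, 2 were called higher in P22 and 0 lower, against 0.32% and 0.107% of all genes. LYL1, KDM1A and SPI1 were picked out after their values were seen. None of the 6 partners passed in W33 when W19, W36 or W42 was left out (adjusted p from 0.0512 to 0.125), and neither KDM1A nor SPI1 in P22 when P9, P15 or P38 was left out (0.0596 to 0.154).

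All 8 genes of the NFE2 and BACH family and the small MAF partners were tested in P95H against WT clones, with 5 estimates above 0, 3 below and a median of 0.03. None was called; MAFK had the smallest unadjusted p (log2 difference -0.39, SE 0.15, edgeR adjusted p = 0.378), at 7.85 ± 0.883 against 10.4 ± 1.35 CPM (SD, n = 4 each). BACH1, the haem-sensing repressor that competes with NFE2 for MAF partners, was at 0.33 (SE 0.17), NFE2L3 at 0.24 and MAFG at 0.22. All P95H clones were below all WT clones for MAFK, as for 4.63% of all genes. The groups overlapped for BACH1, NFE2L3 and MAFG. MAFG fell by 0.75 on the log2 scale in W33 (SE 0.12, adjusted p = 0.0159) and by 0.97 with the trend removed (SE 0.10, adjusted p = 0.0217). Of the 8 genes, 1 was called lower in W33 and 0 higher, against 5.21% and 5.67% of all genes. W33 was also the clone with the most NFE2, which edgeR did not call there with the trend removed (0.48, adjusted p = 0.106). A link between NFE2 and MAFG was not tested. Without W36 or W42 the adjusted p of MAFG was 0.0544 and 0.0610, and without W19 it was 0.0478.

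Of 25 further regulators of globin switching, 23 were tested in P95H against WT clones, with 14 estimates above 0, 9 below and a median of 0.10. None was called by edgeR, and 2 had an unadjusted p under 0.05, both on the higher side, which is near the 6.07% of all genes. Without W33 there were 3 on the higher and 1 on the lower side (7.26% and 5.53% of all genes), and without P22 4 and 0 (5.51% and 5.2%). IKZF1 (Ikaros) averaged 66.5 ± 8.71 CPM over P95H and 50.3 ± 5.79 CPM over WT clones (SD, n = 4 each). Its log2 difference was 0.41 (SE 0.13, edgeR adjusted p = 0.334). All P95H clones were above all WT clones, as for 3.94% of all genes. KLF3, a repressor that recognises the same boxes as KLF1, was at 0.42 (SE 0.16, edgeR adjusted p = 0.359). HIC2, a repressor of BCL11A, was at 0.22 (SE 0.10, adjusted p = 0.428) and POGZ at 0.24 (SE 0.12, adjusted p = 0.460). HIC2 did not overlap between the groups either, and KLF3 and POGZ did. Of the 23 tested, 1 was called lower in W33 and 0 higher, against 5.21% and 5.67% of all genes. In W33 IGF2BP3 was lower by edgeR (-0.88, adjusted p = 0.0172), with an adjusted p of 0.0544 without W36 and 0.0610 without W42. With the trend removed NR2C2, picked out after its values were seen, was called higher instead (0.77, adjusted p = 0.0252).

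Red cell genes known as targets of GATA1 or KLF1 gave the most one-sided estimates of the 4 lists. Of 47 listed, 46 were tested in P95H against WT clones, with 38 above 0, 8 below and a median log2 difference of 0.43 against 0.01 over all genes. None was called by edgeR; at an unadjusted p under 0.05 there were 12 on the higher and 0 on the lower side, against 6.07% and 5.65% of all genes. Without P22 there were 24 and 0, against 5.51% and 5.2% of all genes. The water channel AQP1 was at 8.33, 14.4, 4.77 and 6.10 CPM in W19, W33, W36 and W42 and at 29.01, 66.7, 27.1 and 24.6 CPM in P9, P15, P22 and P38, a log2 difference of 2.15 (SE 0.42, edgeR adjusted p = 0.256). Every P95H clone was above every WT clone, as for 3.94% of all genes. The alpha globin chaperone AHSP was at 11.9, 11.2, 18.5 and 4.23 CPM in the WT clones and 84.5, 25.6, 13.5 and 55.2 CPM in the P95H clones, with P22 inside the WT range (log2 difference 1.96, SE 0.58, adjusted p = 0.320). The membrane skeleton genes ADD2 and EPB42 were at 0.79 (SE 0.21, adjusted p = 0.300) and 1.11 (SE 0.34, adjusted p = 0.324).

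P22 lay below the other P95H clones in this list: 41 of 47 estimates were below 0, with a median of -1.03 against -0.03 over all genes. Of the 47, 3 were called lower and 0 higher, against 0.107% and 0.32% of all genes. Among those lower by edgeR were HEMGN, a nuclear protein of erythroid cells (-2.51, adjusted p = 0.00915), and the minor beta-like globin HBD (-2.48, adjusted p = 0.0262), both picked out after their values were seen. HEMGN also passed with P9, P15 or P38 left out, and HBD then had an adjusted p of 0.0542 to 0.0746. In the same clone GATA1 was at 268 CPM and KLF1 at 113 CPM, and the remaining P95H clones had 214 to 254 CPM of GATA1 and 117 to 136 CPM of KLF1. In P15, where neither GATA1 nor KLF1 was called, 39 of 47 were above 0, with a median of 0.48 against -0.02 over all genes. None of them was called, against 0.00485% of all genes. In W33, where GATA1 and KLF1 were called higher, 33 of 47 were above 0 (median 0.48) and only BLVRB, biliverdin reductase B, was called (0.86, adjusted p = 0.0310; 0.0586 to 0.0993 with W19, W36 or W42 left out). Over all genes tested in W33, 5.67% were called higher and 5.21% lower, with a median log2 difference of 0.03. With the trend removed neither GATA1 nor KLF1 was called in W33. Of the list 30 of 47 were then above 0 (median 0.24) and none was called, against 4.16% of all genes. Whether the level of GATA1 or KLF1 bears on these genes was not tested.

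The globins themselves were at embryonic and fetal levels. HBG2, the more abundant fetal globin, ran from 1129 to 2255 CPM in WT clones and from 1102 to 3002 CPM in P95H clones, lowest in P22. HBG1 and HBG2 are near-identical, so reads may be split between them uncertainly. The embryonic HBE1 was at 123, 166, 59.0 and 78.2 CPM in W19, W33, W36 and W42 and at 1394, 835, 62.3 and 194 CPM in P9, P15, P22 and P38, a log2 difference of 2.55 (SE 0.81, edgeR adjusted p = 0.334). Adult HBB stayed between 0.0597 and 1.26 CPM in all 9 libraries.

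The genes most like a member over the 8 clones were named for the 3 members that varied most, by Pearson's r of log2 CPM over 9855 protein-coding genes, as a description over 8 points that share libraries and groups. They were RAB32, LGALS3BP and ID2 for ZFPM1 (r of 0.95 each), SLC16A9, LETMD1 and COG3 for LMO2 (0.96, 0.92 and 0.92) and BLVRB, ZNF672 and RBFA for KLF1 (0.95 each). These levels still held the length and GC trend of W33. With that trend removed, W33 minus the other WT clones went from 0.89 to 0.19 for KLF1 and from 0.86 to 0.35 for BLVRB.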

How the data were processed

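Polyadenylated RNA was sequenced from 9 K562 cultures (miRNeasy extraction, TruSeq RNA library kit, HiSeq2000, per the labels' protocols). The authors deposited unnormalized counts of reads for each Ensembl gene, made with bcl2fastq, TopHat2 2.0.4 and HTSeq 0.6.1p1 on GRCh37, per the submitters' processing notes, with Ensembl release 75 per the file labels. How the counter treated strand and overlapping genes was not given in the sources used here, and the kit does not mark strand. The 5 summary lines of each count list were left out of library sizes and tests: reads placed in no gene made up 47.6 to 49.1% of those listed, ambiguous reads 2.23 to 2.55%, reads with several alignments 5.06 to 6.06%, and 43.3 to 44.2% were assigned to genes.

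Symbols, exon lengths, GC content and gene order came from GENCODE 29 (GRCh38) by gene ID, with 52526 IDs matched. Exon length was that of all annotated exons of a gene merged, and GC content was that of its longest transcript. As the counts are on another build, no coordinates were taken from it, and length and GC were known for 96.6% of the genes tested. Groups were taken from the sample titles. The main test was edgeR 4.0.16 (R 4.3.3): genes passing filterByExpr were scaled by TMM and fitted with the robust quasi-likelihood model, and p-values were adjusted by Benjamini and Hochberg's method over every tested gene, with a threshold of 0.05. The biological coefficient of variation between clones was 26.3%. The parental library and each single clone were tested in models of the clones, with the lone library assumed to vary like them. Log2 CPM used a prior count of 2. The GATA2 to GATA1 ratio was compared by an exact permutation test over samples. Neighbours were the 10 genes on each side with a mean of at least 5 CPM.

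Other settings tried were DESeq2 1.42.0, limma-voom with quality weights (limma 3.58.1), scaling by RLE or upper quartile, testing every gene or only those at 1 CPM in 4 libraries, 1 model of all 3 groups, pooling the parental library with the WT clones, and dropping each clone in turn. W33 and P22 were also left out together. The removal of a loess trend (span 0.5) over length and GC, and for the GATA2 to GATA1 ratio the leaving out of W33 and P22, were chosen after seeing the data. Scripts were tested on simulated data. Results for some genes are not reported here. The members and lists were chosen with earlier results of these data known. Genes named from each list were up to 4 by unadjusted p in P95H against WT clones, and up to 4 called in a comparison in which a member was called.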

Additional observations from a re-analysis of the deposited data

Results flagged for a closer look

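Within groups of 4 clones, 74 sets of values were screened for a sample far from the rest by Dixon's ratio of gap to range, and 6 were found. Chance flags about 1 in 20 groups, but some genes, SSBP4 and MAFG among them, met the rule for naming through a call in W33, so the number found is not read against that rate. In W33, GATA1 was at 428 CPM while the other WT clones had 217 to 234 CPM. NFE2 in W33 was at 288 CPM, with 152 to 167 CPM in the others. SSBP4 in W33 was at 124 CPM, with 63.2 to 72.8 CPM in the others. MAFG in W33 was the lowest, at 46.6 CPM with 76.4 to 80.6 CPM in the others, and so was POGZ, at 50.3 CPM with 61.3 to 61.8 CPM in the others. In P15, AQP1 was at 66.7 CPM, with 24.6 to 29.01 CPM in the other P95H clones. Differences in W33 moved with gene length and GC content. With that trend removed, W33 differed from the other WT clones by 0.32 for GATA1, 0.48 for NFE2, 0.19 for SSBP4, -0.97 for MAFG and -0.11 for POGZ on the log2 scale, and of these 5 only MAFG passed edgeR's test (adjusted p = 0.0217).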

How the results depend on the processing

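The count of genes called in P95H against WT clones, 0 in the main test, was 2 with no filter, 261 by DESeq2, 59 by limma-voom, 5 without W33 and P22 together, and 0 to 1 with each clone left out (1 without W19); no member was called under any of these. For the parental library against WT clones the count of 1 became 5 with no filter, 0 with the stricter filter, 7 by DESeq2, and 0 to 1 with each WT clone left out (0 without W19 or W42), with 0 members called in each. For single clones, no filter gave 1 call in W19, 25 in P15, 249 in P22 and 1 in P38, and leaving out each other clone gave 2 to 3 in W42 and 31 to 48 in P22 (31 without P9). In W33 the count of 2246 became 859 with the trend over length and GC removed and 0 to 517 with each other WT clone left out. The GATA2 to GATA1 difference of 0.04 turned to -0.20 without W33 and P22, and ranged from -0.13 to 0.19 with each clone left out; it was -0.10 without P9 and -0.03 without P22. Among members, estimates for P95H minus WT changed sign for GATA1 (0.0012 without W33 and P22, and -0.329 to 0.066 with each clone left out, above 0 without W33), GFI1B (0.0215 by limma-voom, 0.0983 without W33 and P22, and -0.123 to 0.0856 with each left out, above 0 without W33) and MYB (-0.307 to 0.0042 with each left out, above 0 without P15). The cause of these changes was not tested, beyond the fewer samples or genes that a setting leaves. TAL1, LMO2, LDB1, ZFPM1 and KLF1 kept estimates above 0 and NFE2 below 0 under all 18 alternatives. No paired analysis was possible because the groups share no clone numbers. With a single library per clone, differences between clones include those between cultures and library preparations, and BCL11A was too low to compare at this depth.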
